A study of Mus musculus with 30 samples.

Results

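The maturation of the wild-type (WT) mouse retina was read from 6 of the 30 RNA-seq libraries of a series on mutants of the transcription factor gene Crx: 3 libraries from postnatal day 10 (P10) and 3 from postnatal day 21 (P21). Both WT groups were C57BL6/J mice with no mutant Crx allele and no treatment, so that age was the labelled difference between them. Each library was made from pooled retinas which, by the study's methods, came from a male and a female mouse. The other libraries came from Crx mutant mice (R90W/+, E168d2neo/+ and E168d2/+ at both ages, and 2 homozygous lines at P10). Of these, the heterozygous lines enter the last comparison below. Markers of rods, bipolar cells, amacrine cells and Müller glia (Gnat1, Trpm1, Gad1 and Glul) were found in every WT library. The WT mice of P21 were littermates of mutants, while the source of the WT mice of P10 was not given, so that an effect of the colony cannot be told apart from one of age. Values are in CPM, the reads of a gene per 1000000 reads on genes, and 12203 of the 12573 deposited genes had 5 CPM or more in all 3 libraries of either age and were tested.

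The retina turns light into nerve signals in 3 cell layers: rods and cones catch light, bipolar, horizontal and amacrine cells pass on and shape the signal, and ganglion cells send it to the brain, with Müller glia spanning all layers. Mouse photoreceptors leave the cell cycle around birth, and in the second and the third postnatal week they grow their outer segments and form ribbon synapses while the eyelids open. In rods, the light-activated pigment switches on the G protein transducin, and transducin activates a phosphodiesterase that lowers cyclic GMP and closes cation channels, after which kinases, arrestin and calcium-sensing proteins restore the dark state.

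One WT library stood apart. Xist, the RNA of the inactive X chromosome that female cells make, was at 1794, 1810.1 and 1671 CPM at P10 and at 3.05, 1503 and 1638 CPM at P21, so that WT P21 replicate A held almost none. The Y-linked gene Ddx3y was at 33.2, 37.8 and 31.1 CPM at P10 and at 35.6, 31.6 and 35.0 CPM at P21, and replicate A was within the range of the others. The Xist level went against the stated mix of both sexes in that library. Counts over all genes are therefore also given without it, while list counts and list medians are not. Low values lay on steps of whole reads, from which 13904716 to 17129572 reads on genes were estimated per P10 library and 20025784 to 23426099 per P21 library. At the 5 CPM limit a gene had 69.5 to 117 reads in a library.

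Between P10 and P21, 587 genes rose and 491 fell at a false discovery rate of 0.05 and a change of 2-fold or more, which is 4.81% and 4.02% of the genes tested. The words rose and fell are used here only for genes past both limits, and other members are given by their values. The false discovery rate alone was passed by 2835 genes higher at P21 (23.2%) and 6237 genes lower at P21 (51.1%). Of the genes that rose or fell, 1077 of 1078 had no overlap between the libraries of P10 and P21, and 9366 of all genes tested (76.8%) had none. Without WT P21 replicate A, 617 genes rose and 493 fell. Changes of 4-fold or more numbered 154 upwards and 87 downwards.

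The balance of rises and falls depended on the scaling. The median log2 difference over all genes tested was -0.17. With the libraries rescaled by the trimmed mean of M values (TMM), 781 genes rose and 342 fell, so that 69.5% of the changed genes were higher in place of 54.5%. A difference between -0.17 and 0 turns positive once that median is set to 0, and list medians below are therefore mostly followed by their distance from it. For the counts of rises and falls in each list below, the shares to compare are 4.81% and 4.02% of all genes tested. These are bulk tissue values, in which fewer cells of a type and less RNA per cell cannot be told apart.

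**Figure D1:**
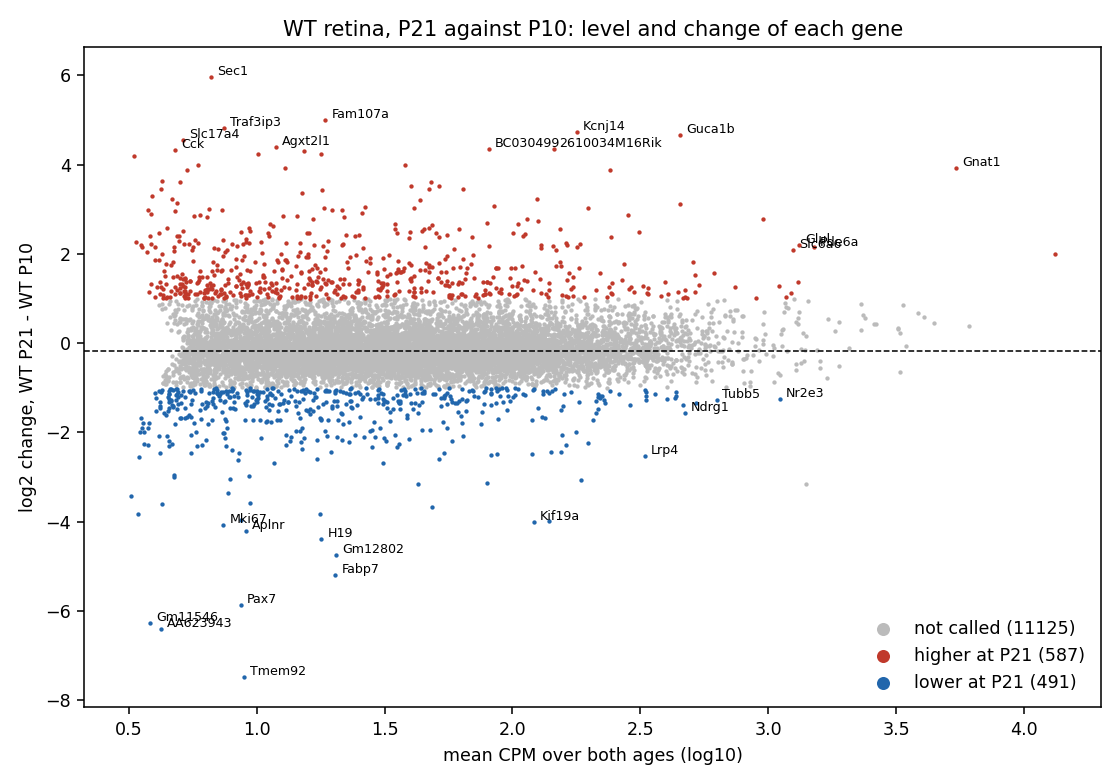
Each point is one of the genes tested, by its mean CPM over both ages (log10, horizontal axis) and its log2 difference P21 minus P10 (vertical axis), with genes that rose in red, genes that fell in blue and the others in grey. The dashed line is the median of all genes (-0.17), and Gnat1 stands out at the right as a high gene that rose, while the grey point far below the others is Xist.

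Summed over the genes that rose, the gain was 68015 CPM, and summed over those that fell the loss was 22365 CPM. Among the largest gains in CPM were those of Gnat1 (9508 CPM), Pde6a, Glul and Slc6a6. Slc6a6, the taurine transporter, went from 474, 476 and 485 CPM at P10 to 2065, 1972 and 2052 CPM at P21 and was 4.24-fold higher at P21 (log2 difference 2.08 ± 0.04 SE, limma adjusted p = 1.44e-14). The P21 values lay far above those of P10, with no overlap. Among the largest losses were those of Nr2e3, Tubb5, Ndrg1 and Lrp4. Ndrg1, a gene induced by stress and differentiation, had 706, 689.9 and 723 CPM at P10 and 253, 222 and 241 CPM at P21 and was 2.96-fold lower at P21 (log2 difference -1.57 ± 0.05 SE, limma adjusted p = 2.16e-12). Lrp4, a receptor of the low density lipoprotein receptor family, had 547, 555 and 584 CPM at P10 and 105, 93.8 and 92.2 CPM at P21 and was 5.79-fold lower at P21 (log2 difference -2.53 ± 0.05 SE, limma adjusted p = 4.32e-14). For both genes every P21 library was below every P10 library.

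Summed over the lists, the 21 rod phototransduction genes took 1.99% ± 0.0208 at P10 and 5.95% ± 0.0172 at P21 of a library's reads (SD, n = 3). The reads of the 23 glycolysis and lactate transport genes were 0.804% ± 0.0194 at P10 and 1.23% ± 0.0653 at P21. Transcripts of the mitochondrial genome took 2.39% ± 0.142 at P10 and 3.12% ± 0.383 at P21. Shares were lower at P21 for immature neuron genes, with 0.622% ± 0.0167 at P10 and 0.262% ± 0.00639 at P21, and for ribosomal protein genes, with 0.408% ± 0.00722 at P10 and 0.291% ± 0.00236 at P21.

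**Figure D2:**
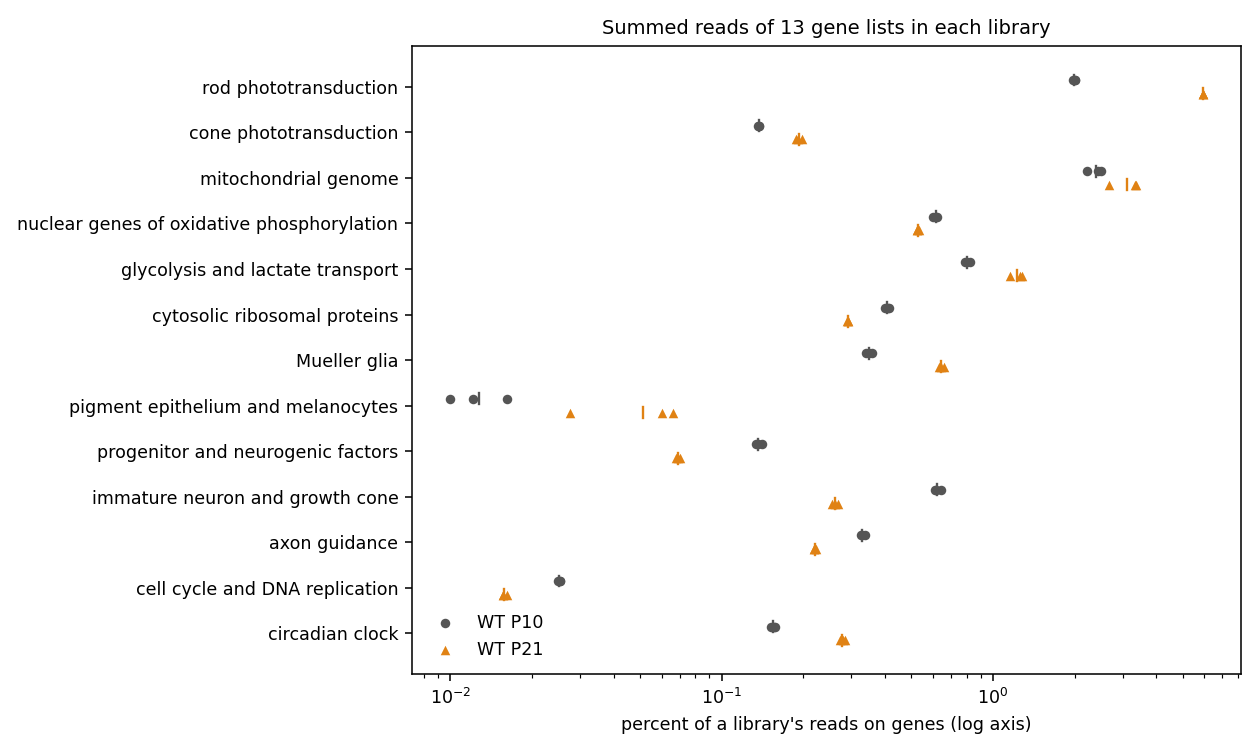
Summed reads of 13 gene lists as a percent of all reads on genes (log axis), with a point for each WT library (circles P10, triangles P21) and a bar at each mean. Rod phototransduction, glycolysis, Müller glia and clock genes lie higher in all 3 P21 libraries, and ribosomal, progenitor, immature neuron, axon guidance and cell cycle genes lie lower, while the P21 libraries are spread widely for pigment epithelium genes.

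All 21 rod phototransduction genes were higher at P21 past the false discovery rate, and 11 of them rose by the 2-fold rule (median log2 difference 1.01, 1.18 above all genes). Of all genes tested, 23.2% were higher past that rate and 4.81% rose. The rise of the rod genes was uneven along the pathway. Gnat1, the rod transducin alpha subunit, had 716, 666 and 626 CPM at P10 and 9788, 10527 and 10217 CPM at P21 and was 15.2-fold higher at P21 (log2 difference 3.93 ± 0.05 SE, limma adjusted p = 6.19e-16). Its P10 libraries were low, its P21 libraries high, and the groups did not overlap.

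The other 2 transducin subunits of rods changed less. Gnb1, the beta subunit, went from 2943 to 4732 CPM on average (log2 difference 0.69), and Gngt1, the gamma subunit, from 451 to 762 CPM (log2 difference 0.76). Among the phosphodiesterase subunits, Pde6a, a catalytic subunit, had 559, 579 and 534 CPM at P10 and 2465, 2439.8 and 2486 CPM at P21 and was 4.42-fold higher at P21 (log2 difference 2.14 ± 0.04 SE, limma adjusted p = 2.09e-14). Pde6b, the partner catalytic subunit, had 1407, 1379 and 1382 CPM at P10 and 2049.5, 2049 and 1969 CPM at P21, a log2 difference of 0.54, and was not called. The inhibitory subunit Pde6g had a log2 difference of 0.82 and was likewise under 2-fold.

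The calcium-sensing guanylate cyclase activators rose, Guca1b by the most of the list. Guca1b, at chr17:47522342-47529916 in mm9, had 36.2, 35.0 and 30.8 CPM at P10 and 884, 799 and 925 CPM at P21 and was 25.5-fold higher at P21 (log2 difference 4.67 ± 0.06 SE, limma adjusted p = 6.19e-16). Guca1a had 30.8, 29.7 and 30.6 CPM at P10 and 497, 431 and 428 CPM at P21 and was 14.8-fold higher at P21 (log2 difference 3.89 ± 0.06 SE, limma adjusted p = 1.09e-15). Both were low in all 3 P10 libraries and high in all 3 P21 libraries, with no overlap. Their targets, the retinal guanylate cyclases Gucy2e and Gucy2f, were near the 2-fold limit, with log2 differences of 1.01 and 1.02. Gucy2e lost the call by quantile normalization and without WT P21 replicate B (0.98), and Gucy2f without WT P10 replicate C (0.93) or WT P21 replicate B (0.98).

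Slc24a1, the rod sodium, calcium and potassium exchanger, had 244, 242 and 242 CPM at P10 and 1675, 1677 and 1635 CPM at P21 and was 6.85-fold higher at P21 (log2 difference 2.78 ± 0.04 SE, limma adjusted p = 6.19e-16). The cyclic nucleotide-gated channel through which the calcium enters moved less, since Cnga1 had a log2 difference of 0.88 and Cngb1 one of 0.48. Of the shut-off genes, the receptor kinase gene Grk1 had 744, 708 and 724 CPM at P10 and 1946, 1936 and 1761 CPM at P21 and was 2.59-fold higher at P21 (log2 difference 1.37 ± 0.05 SE, limma adjusted p = 5.90e-12). Rod arrestin, Sag, went from 2392 to 4321 CPM (log2 difference 0.85) and recoverin, Rcvrn, from 554 to 927 CPM (log2 difference 0.74), both under 2-fold. In the complex that speeds up the shut-off of transducin, the anchor Rgs9bp was 3.52-fold higher and the beta subunit Gnb5 was 2.46-fold higher, while Rgs9 itself, with a log2 difference of 0.95, was not called. Pdc, phosducin, had the smallest log2 difference of the list, 0.46.

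Promoter sequences are shown for the rod genes that rose and had an entry in the RefSeq promoter table, to show where the core of the sites known for CRX and OTX2 occurs before the start. Of the 11 rod genes that rose, 6 had an entry. Each line gives the 160 bases before the gene start, 5′ to 3′ on the gene's strand (GRCm38.p6), with TAATCC or its reverse complement GGATTA in capitals.
Guca1a (chr17:47400607-47400766, minus strand): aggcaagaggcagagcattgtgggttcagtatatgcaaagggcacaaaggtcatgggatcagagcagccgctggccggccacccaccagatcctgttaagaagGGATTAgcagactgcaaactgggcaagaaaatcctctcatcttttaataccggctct
Gucy2e (chr11:69237023-69237182, minus strand): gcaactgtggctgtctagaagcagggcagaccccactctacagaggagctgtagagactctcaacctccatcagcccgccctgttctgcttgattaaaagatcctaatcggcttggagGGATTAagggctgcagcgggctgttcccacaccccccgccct
Gucy2f (chrX:142196937-142197096, minus strand): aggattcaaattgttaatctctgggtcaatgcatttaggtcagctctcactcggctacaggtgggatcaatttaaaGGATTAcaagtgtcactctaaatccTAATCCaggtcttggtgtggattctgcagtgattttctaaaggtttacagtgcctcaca
Gnb5 (chr9:75306128-75306287, plus strand): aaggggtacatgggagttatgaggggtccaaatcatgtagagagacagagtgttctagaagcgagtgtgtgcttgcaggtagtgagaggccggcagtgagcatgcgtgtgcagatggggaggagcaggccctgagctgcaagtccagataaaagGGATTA
Grk1 (chr8:13404921-13405080, plus strand): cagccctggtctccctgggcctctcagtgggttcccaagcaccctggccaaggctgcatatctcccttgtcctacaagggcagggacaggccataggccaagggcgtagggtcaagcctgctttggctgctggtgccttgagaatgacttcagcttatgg
Slc24a1 (chr9:64951621-64951780, minus strand): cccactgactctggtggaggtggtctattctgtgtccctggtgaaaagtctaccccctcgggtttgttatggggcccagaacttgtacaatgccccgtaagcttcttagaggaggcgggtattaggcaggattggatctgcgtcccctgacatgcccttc
In the whole window of 300 bases (250 before and 50 after the start, both strands), the motif was found once in Guca1a, Gucy2e and Gnb5, at 2 places in Gucy2f, and in neither Grk1 nor Slc24a1, while 7.06% of the 32851 windows of the table held it. Of the other motifs searched, TGCTGA, part of the site known for NRL and other MAF proteins (19.5% of all windows), was found in Grk1, CCAAT (37.4%) in Slc24a1 and Gnb5, TATAAA (13.6%) in Gnb5, and the E-box CACGTG (7.15%) in none of the 6. Among the 3 largest falls with an entry, TAATCC was found at 2 places in AA623943 and in neither Gm11546 nor Pax7. A match is only a run of letters in the window. The 6 rod genes were set by their list and by having an entry, so that no enrichment is read from their matches.

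Of 11 cone phototransduction genes, 4 rose, 0 fell and 7 were not called (median log2 difference 0.85, 1.02 above all genes). The medium-wavelength cone opsin gene Opn1mw had 25.9, 25.0 and 21.1 CPM at P10 and 229, 222 and 229 CPM at P21 and was 9.44-fold higher at P21 (log2 difference 3.24 ± 0.07 SE, limma adjusted p = 4.47e-14). The short-wavelength cone opsin gene Opn1sw had 219.9, 209 and 206 CPM at P10 and 377, 423 and 349 CPM at P21 and a log2 difference of 0.85, under 2-fold. The libraries of the ages did not overlap for either opsin. Cone arrestin, Arr3, was 4.56-fold higher at P21 (log2 difference 2.19 ± 0.07 SE, limma adjusted p = 6.01e-12), cone transducin alpha, Gnat2, was 2.66-fold higher, and the cone exchanger Slc24a2 was 2.33-fold higher. In contrast, the beta and gamma subunits of cone transducin had negative differences, with -0.75 for Gnb3, which is also a gene of ON bipolar cells, and -0.39 for Gngt2. The channel subunit Cngb3 was at -0.59 and its partner Cnga3 at 0.22, all on the log2 scale and under 2-fold.

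Genes of the outer segment and the connecting cilium moved little as a list. Of 25 tested, 1 rose, 0 fell and 24 were not called, and the median log2 difference was -0.03, 0.14 above all genes, and positive under TMM scaling (0.13), where 3 rose. The one gene that rose was Fscn2, a retinal actin-bundling fascin, with 16.6, 16.97 and 15.9 CPM at P10 and 85.7, 63.1 and 74.2 CPM at P21 (4.45-fold higher at P21, log2 difference 2.15 ± 0.09 SE, limma adjusted p = 5.10e-11). The rim proteins of the discs, Prph2 and Rom1, had log2 differences of 0.88 and 0.69, and Abca4, the retinoid flippase, one of 0.99, all under 2-fold. At the other end stood genes of the cilium base, with -0.99 for Rpgr, -0.88 for Cep290 and -0.55 for Rpgrip1, of which Rpgr came closest to a 2-fold fall. In the visual cycle list, which recycles the chromophore, 2 rose, 0 fell and 12 were not called of 14 tested (median log2 difference 0.48, 0.65 above all genes). The 2 that rose, Rpe65 and Rgr, are genes of the pigment epithelium and, for Rgr, of Müller glia. The photoreceptor dehydrogenases Rdh12 and Rdh8 had log2 differences of 0.69 and 0.71, and Rdh10 of the pigment epithelium and Müller glia one of -0.61.

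Among the transcription factors that build photoreceptors, more fell than rose. Of 15 tested, 2 rose, 4 fell and 9 were not called (median log2 difference -0.44, -0.27 from all genes). Prdm1, which keeps young photoreceptors from turning into bipolar cells, had 144, 155 and 145 CPM at P10 and 24.4, 26.0 and 28.4 CPM at P21 and was 5.62-fold lower at P21 (log2 difference -2.49 ± 0.06 SE, limma adjusted p = 2.00e-13). Nr2e3, which represses cone genes in rods, had 1502, 1582 and 1596 CPM at P10 and 799.6, 593 and 581 CPM at P21 and was 2.40-fold lower at P21 (log2 difference -1.26 ± 0.09 SE, limma adjusted p = 1.49e-08). Every P21 library of both genes was below every P10 library. Otx2, which acts upstream of Crx, was 2.22-fold lower and Pias3, a SUMO ligase that acts on Nr2e3, was 2.41-fold lower, with 476, 516 and 499.9 CPM at P10 and 234, 219 and 219 CPM at P21 for Otx2. Under TMM scaling 3 of these 4 genes remained past the limits, without Otx2.

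Crx itself had 1539, 1601 and 1481 CPM at P10 and 1151, 1149 and 1107 CPM at P21, a log2 difference of -0.44, and was under 2-fold. Nrl, the rod-determining factor, had 1240.4, 1269.6 and 1257 CPM at P10 and 1551, 1419 and 1436 CPM at P21 and a log2 difference of 0.23. Only Esrrb and Mef2c rose among the 15. Esrrb, an orphan nuclear receptor of rods, had 81.6, 79.1 and 75.2 CPM at P10 and 418, 382 and 426 CPM at P21 and was 5.19-fold higher at P21 (log2 difference 2.38 ± 0.05 SE, limma adjusted p = 4.51e-14). Mef2c, a MADS-box factor, was 3.11-fold higher, from 21.05 to 65.6 CPM, whereas Mef2d had a log2 difference of -0.06.

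**Figure D3:**
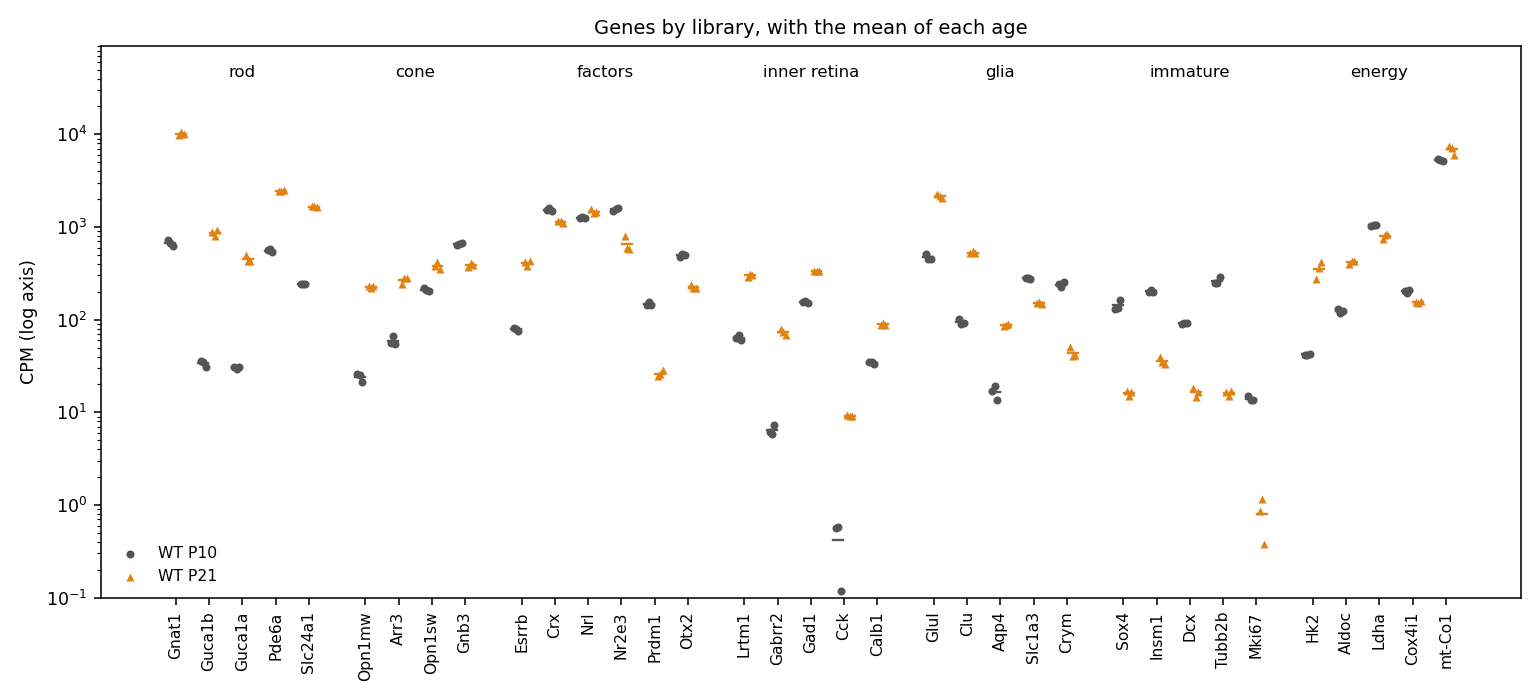
CPM (log axis) of selected genes in each WT library, grouped by cell type or role, with a circle for each P10 library, a triangle for each P21 library and a bar at each mean. The ages separate for every gene drawn, upwards for rod genes and downwards for Nr2e3, Prdm1, Otx2 and the immature genes.

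At the photoreceptor ribbon synapse, 3 rose, 0 fell and 18 were not called of 21 tested (median log2 difference 0.30, 0.47 above all genes). The vesicular glutamate transporter gene Slc17a7 had 796, 748 and 779 CPM at P10 and 1622, 1762 and 1676 CPM at P21 and was 2.18-fold higher at P21 (log2 difference 1.12 ± 0.04 SE, limma adjusted p = 2.41e-11), but lost the call by quantile normalization (log2 difference 0.97). Cplx4, a complexin of photoreceptor terminals, was 2.39-fold higher and Cabp4, which tunes the calcium channel of the terminal, was 2.44-fold higher. The channel subunit Cacna1f had a log2 difference of 0.70, and Ctbp2, whose RIBEYE isoform forms the ribbon, one of -0.09. Dag1 and Egflam, the dystroglycan and pikachurin genes that align terminal and bipolar tip, had log2 differences of -0.68 and -0.33.

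Bipolar cell genes moved in both directions. Of 21 tested, 4 rose, 2 fell and 15 were not called (median log2 difference 0.40, 0.56 above all genes). Lrtm1 had 63.4, 67.9 and 61.1 CPM at P10 and 292, 312 and 301 CPM at P21 and was 4.70-fold higher at P21 (log2 difference 2.23 ± 0.05 SE, limma adjusted p = 7.22e-14). Gng13, the G protein gamma subunit of ON bipolar cells, was 3.87-fold higher, Tacr3, a tachykinin receptor, 2.67-fold higher and Sebox 2.52-fold higher. Of the ON bipolar signalling genes, the channel Trpm1 had a log2 difference of 0.34, Nyx one of 0.45 and Rgs11 one of 0.92, while the receptor Grm6 was at -0.68. The homeobox factor Lhx4 was 2.20-fold lower, and lost the call under TMM scaling (log2 difference -0.97).

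Among 8 horizontal cell genes tested, 2 rose, 1 fell and 5 were not called (median log2 difference -0.57, -0.41 from all genes). The calcium buffer Calb1 had 34.7, 34.7 and 33.4 CPM at P10 and 88.4, 91.8 and 87.5 CPM at P21 and was 2.60-fold higher at P21 (log2 difference 1.38 ± 0.05 SE, limma adjusted p = 1.30e-11), and Nebl was 2.74-fold higher. The factor Onecut2 was 2.44-fold lower, and Onecut1, Lhx1 and Prox1, factors of horizontal cell fate, had log2 differences of -0.80, -0.71 and -0.85. The amacrine list showed 4 rises and 1 fall among 19 tested (median log2 difference 0.28, 0.45 above all genes). The rises were those of transmitter genes, namely the neuropeptides Cck and Vip, the GABA-synthesizing enzyme Gad1 and the acetylcholine-synthesizing enzyme Chat. Gad1 had 156, 158 and 153 CPM at P10 and 335, 331 and 334 CPM at P21 and was 2.15-fold higher at P21 (log2 difference 1.10 ± 0.04 SE, limma adjusted p = 7.68e-12). Chat, from 9.28 to 19.5 CPM, lost the call without WT P21 replicate A (log2 difference 0.999). The neuropeptide Npy moved opposite to Cck and Vip, with 58.7, 57.5 and 63.4 CPM at P10 and 12.1, 11.6 and 13.4 CPM at P21, and was 4.81-fold lower at P21 (log2 difference -2.27 ± 0.07 SE, limma adjusted p = 4.04e-12). The factors Pax6, Tfap2a, Tfap2b and Barhl2 had log2 differences of 0.08, -0.24, -0.43 and -0.13. Of 16 ganglion cell genes, 2 rose, 0 fell and 14 were not called (median log2 difference -0.02, 0.15 above all genes, positive under TMM scaling at 0.14). The neurofilament gene Nefh had 59.3, 60.1 and 62.2 CPM at P10 and 161, 138 and 146 CPM at P21 and was 2.44-fold higher at P21 (log2 difference 1.29 ± 0.06 SE, limma adjusted p = 8.07e-11), and the sodium channel beta subunit Scn4b rose from under 1 CPM to 7.79 CPM. The factors Pou4f1, Pou4f2 and Pou4f3 had log2 differences of -0.19, -0.05 and -0.13.

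Receptor genes for glutamate, GABA and glycine numbered 38 tested, of which 7 rose, 2 fell and 29 were not called (median log2 difference 0.28, 0.45 above all genes). The steepest was Gabrr2, a GABA receptor subunit of bipolar cells, with 6.08, 5.83 and 7.30 CPM at P10 and 80.2, 74.6 and 67.5 CPM at P21 (11.4-fold higher at P21, log2 difference 3.52 ± 0.09 SE, limma adjusted p = 5.48e-13). Its partner Gabrr1 had a log2 difference of only 0.36. Of the GABA alpha subunits, Gabra4 was 2.56-fold higher, while Gabra2 and Gabra3 had log2 differences of 0.46 and 0.11. Of the NMDA receptor subunits, Grin2a was 2.01-fold higher, at the limit, while Grin2b had a log2 difference of -0.48. Of the glycine receptor alpha subunits, Glra1 and Glra3 were 2.21-fold higher and 2.26-fold higher, while Glra2 was at -0.33. By library, Grin2a had 9.28, 6.98 and 8.11 CPM at P10 and 17.8, 17.03 and 14.3 CPM at P21, and Grin2b had 28.0, 28.8 and 31.2 CPM at P10 and 23.04, 20.1 and 19.8 CPM at P21. Slc12a5, the chloride extruder KCC2, had 602, 581 and 612 CPM at P10 and 1178, 1159.9 and 1259.7 CPM at P21 and was 2.00-fold higher at P21 (log2 difference 1.003 ± 0.04 SE, limma adjusted p = 6.67e-11), and the chloride importer Slc12a2 was at -0.18. Grin2a lost the call without WT P10 replicate B (0.90), WT P21 replicate A (0.95) or WT P21 replicate B (0.98), and Slc12a5 without WT P10 replicate B (0.98) or WT P21 replicate C (0.97), all log2 differences. The 2 metabotropic receptors that fell were Grm3 (3.38-fold lower) and Grm7 (2.15-fold lower), of which Grm7 lost the call under TMM scaling (log2 difference -0.94) and by quantile normalization (-0.97).

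Of 35 ion channel and sodium pump genes, 10 rose, 0 fell and 25 were not called (median log2 difference 0.39, 0.56 above all genes). Kcnj14, an inward rectifier potassium channel at chr7:53071837-53080117 in mm9, had 13.3, 14.2 and 11.2 CPM at P10 and 314, 353 and 367 CPM at P21 and was 26.6-fold higher at P21 (log2 difference 4.73 ± 0.08 SE, limma adjusted p = 7.50e-15). All 3 P21 libraries were far above all 3 P10 libraries. Among the auxiliary subunits of sodium channels that rose were Scn2b 3.20-fold higher and Scn4b 11.01-fold higher. The alpha subunit Scn1a was 2.78-fold higher, while Scn3a, an alpha subunit of young neurons, had a log2 difference of -0.59. The fast potassium channel Kcnc2 was 3.48-fold higher and Kcna1 2.61-fold higher. Of the sodium pump, the beta subunit Atp1b1 was 2.14-fold higher, while Atp1b2 had a log2 difference of -0.10.

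Müller glia genes showed 8 rises and 2 falls among 24 tested (median log2 difference 0.32, 0.49 above all genes). Glul, glutamine synthetase, had 507, 455 and 455 CPM at P10 and 2281, 2157 and 2074 CPM at P21 and was 4.60-fold higher at P21 (log2 difference 2.20 ± 0.05 SE, limma adjusted p = 1.36e-13). Clu, clusterin, had 100.5, 88.8 and 91.5 CPM at P10 and 519, 548 and 519 CPM at P21 and was 5.65-fold higher at P21 (log2 difference 2.50 ± 0.05 SE, limma adjusted p = 2.77e-14). The water channel Aqp4 was 5.22-fold higher and the potassium channel Kcnj10, which works beside it, 2.73-fold higher. For each of these genes the 3 P21 libraries were above the 3 P10 libraries. The other rises were those of Slc38a3, Abca8a, Car14 and Dkk3. The glutamate transporter Slc1a3 went the other way, with a log2 difference of -0.88, as did the factors Sox9 (-0.74) and Lhx2 (-0.61), all under 2-fold. The falls were those of Crym, a thyroid hormone-binding protein, with 241, 225 and 253 CPM at P10 and 50.4, 40.5 and 41.6 CPM at P21 (5.43-fold lower at P21, log2 difference -2.44 ± 0.07 SE, limma adjusted p = 1.81e-12), and of Dbi, which was 2.56-fold lower. In the astrocyte and reactive glia list, 3 rose, 1 fell and 3 were not called of 7 tested (median log2 difference 0.96, 1.13 above all genes). Cebpd, S100b and Aldh1l1 rose, while Pdgfra, which marks astrocytes and their precursors, was 2.05-fold lower and lost the call under TMM scaling, by quantile normalization and without WT P21 replicate B (log2 difference -0.97). Gfap had 16.7, 12.9 and 13.7 CPM at P10 and 14.7, 13.7 and 19.6 CPM at P21, a log2 difference of 0.14, and did not pass the test.

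Genes of non-neural cells moved in both directions. Of 8 microglia genes tested, 0 rose, 3 fell and 5 were not called (median log2 difference -0.94, -0.77 from all genes). The 3 that fell were Cx3cr1, C1qc and Cd68, of which Cx3cr1 lost the call under TMM scaling (log2 difference -0.96). Cd68, a lysosomal protein of phagocytes, had 7.84, 6.54 and 6.01 CPM at P10 and 2.47, 2.10 and 3.12 CPM at P21 and was 2.61-fold lower at P21 (log2 difference -1.38 ± 0.17 SE, limma adjusted p = 3.92e-06). Of 22 vessel genes, 2 rose, 5 fell and 15 were not called (median log2 difference -0.47, -0.30 from all genes). The VEGF receptor Kdr, which is also on retinal neurons, had 321, 314 and 314 CPM at P10 and 94.9, 117 and 133 CPM at P21 and was 2.78-fold lower at P21 (log2 difference -1.48 ± 0.08 SE, limma adjusted p = 1.67e-09). Angpt2, Apln, Tie1 and Cdh5, genes of growing vessels and their junctions, were 2.34-fold lower, 2.58-fold lower, 2.50-fold lower and 2.32-fold lower. In the same list the barrier transporter Slco1a4 was 7.19-fold higher and the VEGF receptor Flt1 2.15-fold higher. Of 5 blood genes and 3 myelin genes, 0 and 0 were called, with median log2 differences of 0.19 and -0.39.

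Markers of the tissue behind the retina differed between the ages as well. How much of that tissue came along at dissection was not measured, and its part in these values was not tested. Of 9 pigment epithelium and melanocyte genes tested, 6 rose, 0 fell and 3 were not called (median log2 difference 1.88, 2.05 above all genes). Their summed level was 162, 99.5 and 121 CPM at P10 and 276, 663 and 604 CPM at P21, lowest of the P21 libraries in replicate A. Rpe65, the isomerase that defines the pigment epithelium, had 4.07, 1.29 and 2.04 CPM at P10 and 19.4, 19.8 and 5.76 CPM at P21, and Tyrp1, a melanin enzyme, had 12.8, 8.41 and 9.46 CPM at P10 and 21.2, 92.8 and 94.0 CPM at P21. At P21 Tyrp1 was lowest in replicate A and Rpe65 in replicate C, and neither gene overlapped between the ages. The part of pigment epithelium RNA in the values of genes that the retina also expresses (Rgr, Rdh5, Rdh10) was not tested. Of the 21 lens genes, 10 were in the table and 2 were tested, of which Cryaa rose, from 0.836 to 6.66 CPM, a call that was lost with all 10 groups in 1 fit. None of the 7 cornea and conjunctiva genes was in the table.

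Genes of young neurons had the lowest median of all lists. Of 24 immature neuron and growth cone genes, 0 rose, 16 fell and 8 were not called (median log2 difference -1.16, -0.99 from all genes). With TMM scaling 12 fell. Tubb2b, a tubulin of migrating and growing neurons, had 247, 247 and 291 CPM at P10 and 16.7, 15.2 and 17.03 CPM at P21 and was 15.9-fold lower at P21 (log2 difference -3.99 ± 0.07 SE, limma adjusted p = 7.50e-15). Nnat, neuronatin, was 8.33-fold lower at P21 (log2 difference -3.06 ± 0.07 SE, limma adjusted p = 1.35e-13), with 321, 312 and 359.6 CPM at P10 and 43.7, 35.7 and 39.7 CPM at P21. Dcx, doublecortin, had 91.0, 91.0 and 91.4 CPM at P10 and 18.4, 14.6 and 16.7 CPM at P21 and was 5.50-fold lower at P21 (log2 difference -2.46 ± 0.07 SE, limma adjusted p = 2.21e-12). In all 3 genes each P21 library was below each P10 library. Gap43, Marcksl1, Tmsb10 and Tuba1a were among the others that fell, and the RNA-binding protein genes Elavl2 and Elavl4 had log2 differences of -0.08 and -0.58.

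Of 20 progenitor and neurogenic factors, 0 rose, 10 fell and 10 were not called (median log2 difference -0.99, -0.83 from all genes). Sox4 had 132, 133 and 162 CPM at P10 and 16.9, 14.8 and 16.5 CPM at P21 and was 8.78-fold lower at P21 (log2 difference -3.13 ± 0.08 SE, limma adjusted p = 3.09e-13). Insm1, a zinc finger factor of newborn neurons, had 199, 207 and 200.2 CPM at P10 and 39.5, 34.9 and 33.6 CPM at P21 and was 5.61-fold lower at P21 (log2 difference -2.49 ± 0.06 SE, limma adjusted p = 1.51e-13). Sox11 was 4.82-fold lower, Hes5 4.16-fold lower and Notch1 2.54-fold lower. The eye field factors Six3, Six6 and Rax, by contrast, had log2 differences of -0.19, -0.04 and -0.25, and none was called.

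In the cell cycle list, 0 rose, 7 fell and 6 were not called of 13 tested (median log2 difference -1.10, -0.93 from all genes), and with TMM scaling 4 fell. Mki67, the proliferation marker Ki-67, had 14.98, 13.7 and 13.5 CPM at P10 and 0.852, 1.15 and 0.384 CPM at P21 and was 16.99-fold lower at P21 (log2 difference -4.09 ± 0.26 SE, limma adjusted p = 5.54e-09). Top2a, which untangles chromosomes in mitosis, was 7.81-fold lower. Not all of the list moved so: Pcna had a log2 difference of -0.13 and Ccna2 one of 0.23.

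Wiring genes had smaller differences. Of 35 axon guidance genes, 0 rose, 7 fell and 28 were not called (median log2 difference -0.58, -0.41 from all genes). Of 32 cell adhesion genes, 0 rose, 1 fell and 31 were not called (median log2 difference -0.39). Over all genes tested, 4.81% rose and 4.02% fell. Sema5b, a semaphorin that confines inner retinal neurites, had 101, 101 and 109 CPM at P10 and 24.8, 22.6 and 26.4 CPM at P21 and was 4.21-fold lower at P21 (log2 difference -2.07 ± 0.06 SE, limma adjusted p = 2.44e-12). The plexin receptors Plxna2, Plxna3 and Plxna4 were 2.14-fold lower, 2.41-fold lower and 2.10-fold lower, and with TMM scaling 4 genes of the list fell, with Plxna2 (-0.93), Plxna4 (-0.90) and Epha3 (-0.95, log2 differences) no longer called. The one adhesion gene that fell was Chl1, from 32.1 to 12.4 CPM. Of 29 matrix genes, 2 rose, 6 fell and 21 were not called (median log2 difference -0.30). Ncan, neurocan, had 94.2, 94.6 and 107 CPM at P10 and 28.4, 29.3 and 27.7 CPM at P21 and was 3.45-fold lower at P21 (log2 difference -1.79 ± 0.06 SE, limma adjusted p = 6.01e-12), and Fbn1 and Fbn2 moved apart, with Fbn1 3.96-fold higher and Fbn2 2.45-fold lower. Hapln4, a link protein of perineuronal matrix, was 4.87-fold higher, from 1.62 to 8.28 CPM on average.

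Of 16 imprinted and fetal growth genes, 0 rose, 2 fell and 14 were not called (median log2 difference -0.44). H19, an imprinted noncoding RNA, had 33.7, 30.1 and 39.1 CPM at P10 and 1.21, 1.55 and 1.88 CPM at P21 and was 21.1-fold lower at P21 (log2 difference -4.40 ± 0.15 SE, limma adjusted p = 7.43e-12), whereas Meg3, another one, had a log2 difference of 0.32 and Peg3 one of 0.75. Of 36 chromatin genes, 0 rose, 5 fell and 31 were not called (median log2 difference -0.39). Ezh2, the Polycomb methyltransferase, had 64.8, 61.2 and 63.3 CPM at P10 and 27.4, 25.1 and 23.5 CPM at P21 and was 2.49-fold lower at P21 (log2 difference -1.32 ± 0.06 SE, limma adjusted p = 2.80e-10), while its homologue Ezh1 had a log2 difference of 0.60. The nucleosome-binding protein gene Hmgn2 was 3.17-fold lower and its homologue Hmgn1 was at 0.35. The lamin B receptor gene Lbr had a log2 difference of -0.17, and Lmnb1, lamin B1, one of -0.71. Of 60 ribosomal protein genes none was called, but 53 were lower past the false discovery rate and 1 was higher (median log2 difference -0.49, -0.32 from all genes). Over all genes tested, 51.1% were lower past that rate. Genes with near-identical copies elsewhere in the genome, as ribosomal protein, tubulin, globin, Hmgn and Gapdh genes have, are uncertain in level, since reads that fit several places may be lost.

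**Figure D4:**
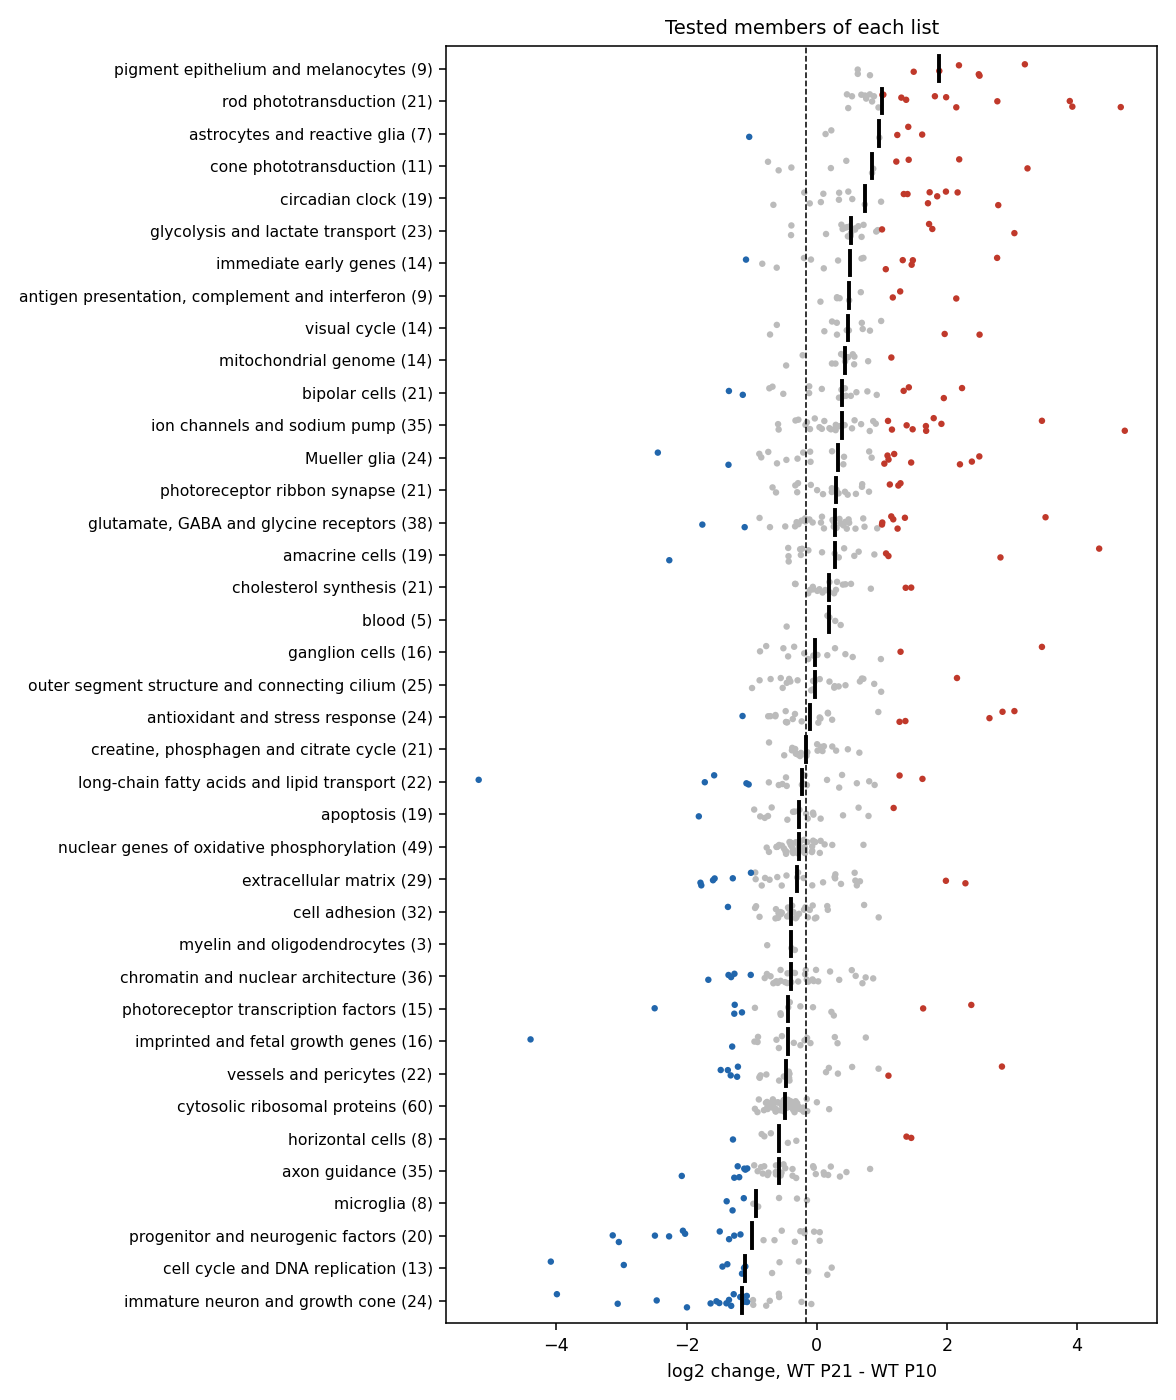
Log2 difference P21 minus P10 of every tested member of the lists with 3 or more tested members (numbers in brackets), in red where it rose, in blue where it fell and in grey otherwise, with a bar at each list's median and a dashed line at the median of all genes. Pigment epithelium and rod phototransduction genes have the highest medians (1.88 and 1.01), and immature neuron genes the lowest (-1.16).

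Genes of energy supply changed by pathway. Of 23 glycolysis and lactate transport genes, 4 rose, 0 fell and 19 were not called (median log2 difference 0.53, 0.70 above all genes). Hk2, the hexokinase typical of photoreceptors and tumours, had 41.8 to 42.9 CPM over the 3 libraries of P10 and 278, 362 and 417 CPM at P21 and was 8.21-fold higher at P21 (log2 difference 3.04 ± 0.10 SE, limma adjusted p = 6.02e-12), while Hk1 had a log2 difference of 0.51. Aldoc was 3.42-fold higher, the monocarboxylate transporter Slc16a1 3.31-fold higher and Eno2 2.00-fold higher. Eno2 lost the call without WT P10 replicate A (0.996), WT P10 replicate B (0.995) or WT P21 replicate C (0.97, log2 differences). The lactate dehydrogenase genes moved apart, with 1032, 1063 and 1043 CPM at P10 and 739.5, 812 and 838 CPM at P21 for Ldha and 87.2, 82.6 and 87.2 CPM at P10 and 142, 143 and 139 CPM at P21 for Ldhb. Ldha was thus lower in each P21 library and Ldhb higher, with log2 differences of -0.39 and 0.72 that were past the false discovery rate but under 2-fold.

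None of 49 nuclear genes of oxidative phosphorylation was called, and 38 were lower past the false discovery rate against 2 higher (median log2 difference -0.28, -0.11 from all genes). Of all genes tested, 51.1% were lower past that rate and 23.2% higher. Cox4i1, a subunit of complex IV, had 204, 196 and 209 CPM at P10 and 154, 152 and 160.3 CPM at P21, and Ppargc1a, a coactivator of mitochondrial genes, was higher with a log2 difference of 0.72. Of 14 genes of the mitochondrial genome, 12 were higher and 1 lower past the false discovery rate (median log2 difference 0.44, 0.61 above all genes). mt-Co1 had 5381, 5291 and 5202 CPM at P10 and 7517, 7181 and 5974 CPM at P21, and the libraries of the ages did not overlap. Of the 14 genes, 7 had no overlap, against 76.8% of all genes tested. The summed level of the list was 33608, 33258 and 26804 CPM in the P21 libraries, lowest in replicate C. The one gene of the list that was called, mt-Atp8, was the only called gene of the whole comparison whose libraries overlapped. It had 26.4, 41.8 and 13.2 CPM at P10 and 57.9, 66.4 and 41.4 CPM at P21, and lost the call without WT P10 replicate C (log2 difference 0.70). By quantile normalization the median of this list was 0.07. Creatine and citrate cycle genes had 0 calls among 21 (median log2 difference -0.16, and 0.01 with TMM scaling).

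Of 21 cholesterol genes, 2 rose, 0 fell and 19 were not called (median log2 difference 0.20). One of the rises was that of the sterol sensor Insig1, from 29.3 to 76.1 CPM. Of 22 fatty acid and lipid transport genes, 2 rose, 5 fell and 15 were not called (median log2 difference -0.22), and with TMM scaling 3 rose and 3 fell. Fabp7, the fatty acid-binding protein of radial glia, had 36.3, 42.4 and 40.2 CPM at P10 and 1.12, 1.10 and 0.768 CPM at P21 and was 36.6-fold lower at P21 (log2 difference -5.19 ± 0.14 SE, limma adjusted p = 7.79e-13). Elovl2, an elongase of very long polyunsaturated fatty acids, had 182, 191 and 177 CPM at P10 and 57.6, 55.6 and 53.4 CPM at P21 and was 3.29-fold lower at P21 (log2 difference -1.72 ± 0.05 SE, limma adjusted p = 8.94e-13), while Elovl4, which acts further along in photoreceptors, had a log2 difference of 0.16. Adipor1, a receptor needed to retain docosahexaenoic acid in the retina, was 2.42-fold higher and the desaturase Scd1 3.08-fold higher.

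Clock genes made up one of the lists with the most rises. Of 19 tested, 8 rose, 0 fell and 11 were not called (median log2 difference 0.74, 0.91 above all genes). Drd4, the dopamine receptor whose retinal RNA cycles over the day, had 31.9, 28.9 and 25.3 CPM at P10 and 212, 183 and 201 CPM at P21 and was 6.91-fold higher at P21 (log2 difference 2.79 ± 0.08 SE, limma adjusted p = 7.60e-13). The output factors Dbp and Hlf were 3.27-fold higher and 4.48-fold higher, Nr1d1 3.33-fold higher, and Per1, Per2 and Per3 2.63-fold higher, 3.61-fold higher and 2.53-fold higher. Arntl, whose RNA cycles opposite to that of Dbp, Nr1d1 and the Per genes, had a log2 difference of -0.67. It had 155, 159 and 159 CPM at P10 and 104, 94.8 and 99.2 CPM at P21, with all P21 libraries below all P10 libraries. The hour at which retinas were taken was not given in the sources used here and its part in these values was not tested. Of 14 immediate early genes, 5 rose, 1 fell and 8 were not called (median log2 difference 0.51). Fos had 4.45, 4.24 and 3.62 CPM at P10 and 23.1, 27.7 and 36.3 CPM at P21 and was 6.83-fold higher at P21 (log2 difference 2.77 ± 0.14 SE, limma adjusted p = 4.52e-10). Egr1, Nr4a1, Dusp1 and Npas4 rose too, Npas4 without the call when WT P10 replicate C (0.97) or WT P21 replicate C (0.9995, log2 differences) was left out. Ier5 fell, though not under TMM scaling or quantile normalization, and Jun had a log2 difference of -0.84.

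In the antioxidant and stress list, 5 rose, 1 fell and 18 were not called of 24 tested (median log2 difference -0.10, and 0.06 with TMM scaling). The metallothionein genes Mt1 and Mt2 were 6.29-fold higher and 8.21-fold higher, with 14.0, 11.9 and 13.2 CPM at P10 and 99.2, 84.8 and 66.8 CPM at P21 for Mt1. Gpx3, a secreted glutathione peroxidase, was 7.23-fold higher and the heat shock genes Hspa1a and Hspa1b were 2.57-fold higher and 2.42-fold higher, while Txnip fell, though not under TMM scaling or without WT P21 replicate C (log2 difference -0.94). Sod1, Sod2 and Gclc had log2 differences of 0.02, 0.06 and 0.05. Of 9 antigen presentation, complement and interferon genes, 3 rose, 0 fell and 6 were not called (median log2 difference 0.50). Irf7, an interferon regulator, was 4.42-fold higher and H2-K1, a class I antigen gene, 2.43-fold higher. Of 19 apoptosis genes, 1 rose, 1 fell and 17 were not called (median log2 difference -0.27). Bax, Bid and Bbc3 had log2 differences of -0.75, -0.87 and -0.96.

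The 10 largest rises on the log2 scale were those of Sec1, Fam107a, Traf3ip3, Kcnj14, Guca1b, Slc17a4, Agxt2l1, 2610034M16Rik, BC030499 and Cck. Sec1, a fucosyltransferase gene at chr7:52933059-52949772 in mm9, had 0.188, 0 and 0.234 CPM at P10 and 14.6, 12.2 and 12.6 CPM at P21. It was near the floor of 3 reads at P10 (0.175 to 0.216 CPM), so that the fitted log2 difference of 5.96 depends on the 0.1 CPM that was added. 2610034M16Rik, at chr17:59018231-59130798, went from 14.0, 15.1 and 11.2 CPM at P10 to 253, 287 and 289 CPM at P21 (20.5-fold higher), and BC030499, at chr11:78104343-78110307, from 6.83, 8.41 and 7.30 to 144, 161 and 158 CPM (20.3-fold higher). Fam107a, an actin-binding stress gene, had the widest spread at P21 relative to its mean among the 10, with 1.44, 0.791 and 0.817 CPM at P10 and 52.8, 30.5 and 25.1 CPM at P21. Traf3ip3, Slc17a4, Agxt2l1 and Cck were each under 2 CPM in every P10 library and at 9.05 to 30.4 CPM at P21.

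The 10 largest falls were those of Tmem92, AA623943, Gm11546, Pax7, Fabp7, Gm12802, H19, Aplnr, Mki67 and Kif19a. Kif19a, a kinesin that limits the length of cilia, was the most abundant of them at chr11:114626702-114652053 in mm9, with 213, 236 and 235 CPM at P10 and 13.9, 14.4 and 13.7 CPM at P21 (16.1-fold lower at P21, log2 difference -4.01 ± 0.05 SE, limma adjusted p = 6.19e-16). Pax7, a paired-box factor known from muscle and midbrain precursors, had 16.5, 17.3 and 17.6 CPM at P10 and 0.224, 0.250 and 0.128 CPM at P21, near the floor of 3 reads at P21. Gm12802, annotated as a processed transcript, had 39.4, 39.7 and 39.4 CPM at P10 and 1.34, 1.198 and 1.58 CPM at P21 and was 27.0-fold lower at P21 (log2 difference -4.76 ± 0.12 SE, limma adjusted p = 2.44e-13). Aplnr, the apelin receptor of growing vessels, had 17.5, 16.4 and 18.04 CPM at P10 and 1.30, 0.849 and 0.512 CPM at P21 and was 18.6-fold lower at P21 (log2 difference -4.22 ± 0.23 SE, limma adjusted p = 9.35e-10).

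The 3 largest falls were neighbours. Tmem92, at chr11:94638531-94644017, Gm11546, at chr11:94658363-94659091, and AA623943, at chr11:94673933-94674662 (mm9, all on the minus strand), lie 14345 and 14841 bases apart. Gm11546 and AA623943 are annotated there as pseudogenes. The position and exons of Tmem92 are those of the GENCODE entry Tmem92-ps, annotated as protein coding, which was assumed to be the same gene. Tmem92 had 17.6, 18.6 and 17.5 CPM at P10, AA623943 7.84, 9.78 and 7.76 CPM and Gm11546 7.65, 7.62 and 7.76 CPM, and none of the 3 genes had a read in any WT library at P21. Against the highest floor of 3 reads per library (0.150 CPM), Tmem92 was at least 119-fold lower at P21, AA623943 at least 56.5-fold lower and Gm11546 at least 51.3-fold lower, bounds that cover counting error only. The pattern was not special to these libraries, since in the mutant groups the 3 genes were at 4.39 to 56.3 CPM at P10 and at 0 to 0.501 CPM at P21. The 3 genes share sequence: of the 42-base windows (the read length) in their annotated exons, 12.2% for Tmem92, 25.1% for Gm11546 and 22.5% for AA623943 also occur at another of the 3 places, so that how their reads divide is uncertain.

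Last, the age change of WT was set against that of the 3 heterozygous Crx mutants, R90W/+ (a missense allele) and E168d2neo/+ and E168d2/+ (the same truncating allele with and without a retained neo cassette), each with 3 libraries an age. Over 12490 genes, the difference of the age change from WT passed the false discovery rate for 91 genes in R90W/+ (0.729%), 239 in E168d2neo/+ (1.91%) and 644 in E168d2/+ (5.16%). The 3 tests share the WT libraries. In R90W/+ at P10, Xist was at 2868, 1324 and 1563 CPM and Ddx3y at 20.2, 39.6 and 37.8 CPM. Replicate A thus differed from replicates B and C in its mix of sexes, and no count was made without it. The counts depended on single WT libraries. For R90W/+ the count was 45 without WT P10 replicate B, 29 without WT P10 replicate C and 48 without WT P21 replicate A. For E168d2neo/+ it was 110, 89 and 120 without WT P10 replicates A, B and C and 115, 124 and 154 without WT P21 replicates A, B and C. For E168d2/+ it was 381 and 398 without WT P10 replicates B and C and 382 without WT P21 replicate B. Glul, of Müller glia, reached 2024, 2145 and 2287 CPM at P21 in R90W/+, E168d2neo/+ and E168d2/+, against 2171 in WT. At P10 Glul was at 799, 616 and 825 CPM in the same order, against 472 in WT, so that it started higher in the heterozygotes. Dcx, of young neurons, was at 15.7, 16.1 and 17.4 CPM at P21 in the same order, against 16.6 in WT. The rod genes Guca1b and Gnat1 were lower in E168d2/+ than in WT at both ages. Guca1b was at 859, 620 and 240 CPM at P21 in the same order, against 869 in WT. Gnat1 was at 9508, 9043 and 6742 CPM, against 10177 in WT. Of the 587 genes that rose in WT, 103 passed the test in E168d2/+, 91 below the WT age change and 12 above. In E168d2neo/+, 18 passed below it and 11 above, and in R90W/+, 32 below and 0 above. Of the 491 genes that fell in WT, 77 passed above the WT age change and 1 below in E168d2/+. The same split was 28 and 3 in E168d2neo/+ and 19 and 0 in R90W/+. Both sets were chosen in the same WT libraries, whose error alone would tilt these splits, and its part was not tested. Over all 12490 genes the split was 431 above and 213 below in E168d2/+, 156 and 83 in E168d2neo/+, and 34 and 57 in R90W/+.

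**Figure D5:**
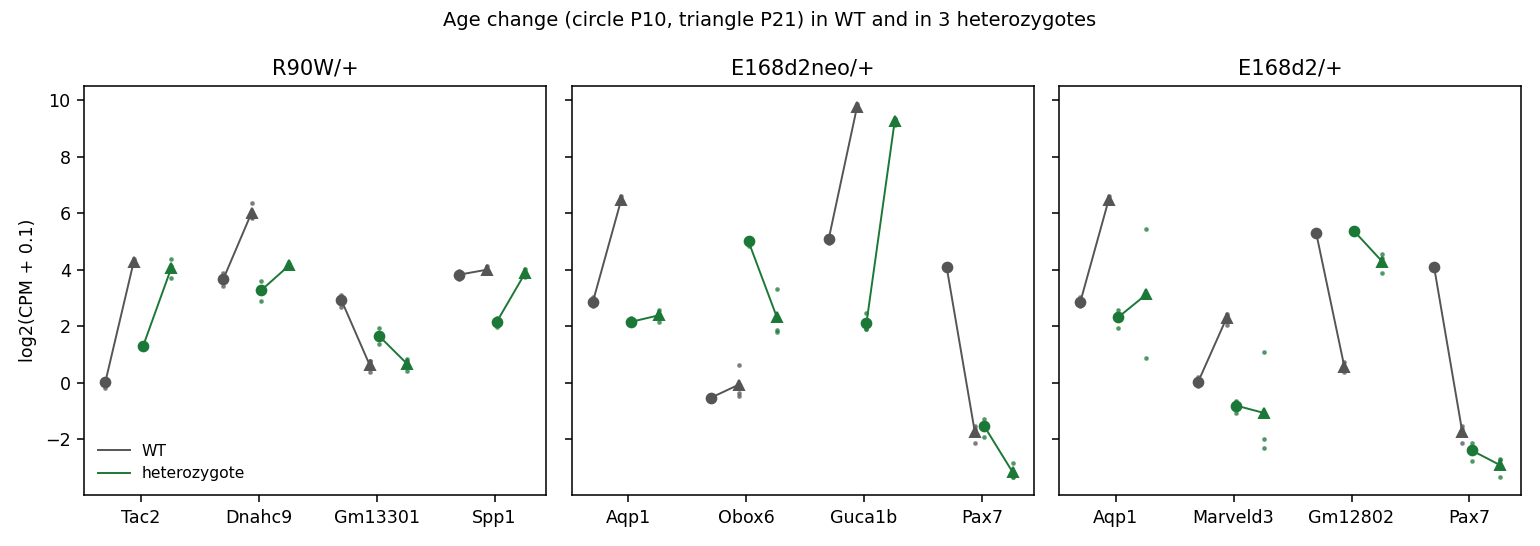
Mean log2(CPM + 0.1) at P10 (circles) and P21 (triangles), with small points for the libraries, in WT (grey) and a heterozygote (green), for the 2 genes of each heterozygote whose age change was most above and the 2 whose age change was most below that of WT. Pax7 fell in WT from a P10 level that E168d2neo/+ and E168d2/+ did not have, and Aqp1 ended at P21 lower in both of these heterozygotes than in WT.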

How the data were processed

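Retinas of WT mice at P10 and P21 were analysed from 3 libraries each, the replicates being separate pools of mice. Per the labels and the methods, the authors made polyadenylated RNA libraries, sequenced 42-base single reads, aligned them to mm9 with TopHat2 2.0.5, counted reads per gene with HTSeq 0.6.1p1, and deposited CPM made with edgeR 3.6.8. The table also holds the authors' own fold changes and test values, which were not used here. All 30 CPM columns matched a labelled sample, and the number of columns left out was 0.

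CPM values were tested with limma 3.58.1 (R 4.3.3) on log2(CPM + 0.1) with a variance trend, two-sided, and p-values were adjusted by the Benjamini-Hochberg method over all genes tested. Fold changes are on that scale, which understates those of low genes. Genes needed 5 CPM in all 3 libraries of either age. The age change of the heterozygotes was compared with that of WT by an interaction term in 1 fit of 24 libraries. Named were the 10 largest rises and falls without overlap, the 5 largest gains and losses in CPM, members of the 41 gene lists, and the 2 largest differences each way per heterozygote. Symbols that had become dates (20) were not named. The members and lists were chosen with earlier results of these data known, so that their counts are descriptions. Some members that met these rules are counted but not reported by name here.

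Low values lay on steps of whole reads (within 0.1 of a read below 1000 reads), from which depth was estimated. No count test was run on reads recovered in this way. Tables were prepared with pandas 2.3.3 and numpy 2.4.6 in Python 3.11.15 and figures with matplotlib 3.10.9. The test was tested on simulated data of this design, in which 200 of 200 genes raised by 1.5 log2 units and 193 of 194 lowered by as much were recovered. Positions are those of GENCODE vM1 on mm9. Promoters are those of RefSeq on GRCm38.p6. Only 65.8% of the genes that rose, 67.4% of those that fell and 70.9% of those tested had an entry. Motif shares were not compared between changed and other genes.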

Additional observations from a re-analysis of the deposited data

Results flagged for a closer look

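For 12 gene and genotype pairs the age change differed from that of WT by the interaction test, the 2 largest each way per heterozygote (limma, log2 difference of the change, heterozygote minus WT). In R90W/+, Tac2, a tachykinin gene, was at -1.47 ± 0.24 (SE, limma adjusted p = 0.00615), and Dnahc9, a dynein of motile cilia, at -1.46 ± 0.31 (SE, limma adjusted p = 0.0252). The pair above WT was Spp1, osteopontin, at 1.54 ± 0.25 (SE, limma adjusted p = 0.00615), and Gm13301 at 1.30 ± 0.30 (SE, limma adjusted p = 0.0441). In E168d2neo/+, the water channel gene Aqp1 was at -3.38 ± 0.81 (SE, limma adjusted p = 0.0321), and Obox6, a homeobox gene of oocytes, at -3.14 ± 0.59 (SE, limma adjusted p = 0.00654). Above WT lay Pax7 at 4.24 ± 0.54 (SE, limma adjusted p = 1.46e-04) and Guca1b at 2.50 ± 0.42 (SE, limma adjusted p = 0.00204). In E168d2/+, Aqp1 was at -2.79 ± 0.81 (SE, limma adjusted p = 0.0468) and Marveld3, a tight junction gene, at -2.52 ± 0.73 (SE, limma adjusted p = 0.046). The pair above WT was Pax7 at 5.35 ± 0.54 (SE, limma adjusted p = 3.02e-06) and Gm12802 at 3.67 ± 0.32 (SE, limma adjusted p = 3.63e-07).

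Aqp1 had 8.02, 7.05 and 6.54 CPM at P10 and 81.4, 88.6 and 97.0 CPM at P21 in WT and 5.31, 5.86 and 3.74 CPM at P10 and 8.19, 43.8 and 1.75 CPM at P21 in E168d2/+, where the P21 libraries spread widely. Pax7 was at 16.5, 17.3 and 17.6 CPM at P10 and 0.224, 0.250 and 0.128 CPM at P21 in WT and at 0.0474, 0.126 and 0.107 CPM at P10 and 0.0515, 0.0546 and 0 CPM at P21 in E168d2/+, so that its positive difference stands beside a P10 level that was already low and near 0.1 CPM, the value added before the log. Aqp1 had 4.16, 4.76 and 4.17 CPM at P10 and 5.26, 4.39 and 5.90 CPM at P21 in E168d2neo/+. Guca1b had 5.48, 3.68 and 3.67 CPM at P10 and 649.9, 565 and 645 CPM at P21 in E168d2neo/+, against 36.2, 35.0 and 30.8 CPM at P10 and 884, 799 and 925 CPM at P21 in WT. Obox6 had 28.8, 33.2 and 34.4 CPM at P10 and 3.38, 3.54 and 9.98 CPM at P21 in E168d2neo/+ and under 2 CPM in every WT library.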

How the results depend on the processing

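Every alternative kept the counts of WT genes that rose (517 to 787) and fell (339 to 522) within 1.5 times the reported 587 and 491, and no gene called in one direction was called in the other. Without one library at a time the counts ran from 569 to 617 and from 480 to 502. Median log-ratio scaling gave 787 and 339, and quantile normalization 688 and 418. Same-lettered replicates did not deviate together (correlations of deviations 0.016, 0.036 and 0.117), so the letters were not taken to pair libraries, and with a replicate block 587 genes rose and 492 fell. Of 203 genes named or in the lists and called, 21 lost the call under TMM scaling, 17 under quantile normalization, and none turned its direction under any setting. The genes differing from WT in their age change were less stable. For R90W/+, E168d2neo/+ and E168d2/+ they numbered 45, 109 and 386 with the replicate block, and 209 and 757 for the first 2 with only WT and the heterozygote in the fit, and 29 to 71, 89 to 154 and 381 to 474 without one WT library at a time. The cause was not tested. The planned edgeR and DESeq2 fits were not run. With 3 libraries an age, an exact permutation test of one gene could not go below p = 0.1.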

Other observations

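Smooth muscle genes varied between the P21 libraries and were chosen after their values were seen. Myh11, smooth muscle myosin, had 1.25, 1.15 and 1.11 CPM at P10 and 5.69, 40.7 and 57.2 CPM at P21, Acta2 had 3.51, 2.88 and 3.27 and 4.89, 31.4 and 40.5 CPM, and Tagln 3.95, 3.596 and 3.68 and 4.84, 10.8 and 12.4 CPM. In each of the 3 genes WT P21 replicate A, the library with almost no Xist, was the lowest at P21.

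Genes under the 5 CPM limit included some with large differences, also chosen after their values were seen. The complement gene C4b had 0.188, 0.144 and 0.175 CPM at P10 and 3.18, 7.09 and 11.7 CPM at P21, the interferon-induced gene Ifit3 0.940, 1.08 and 0.409 and 4.93, 6.59 and 8.24 CPM, and Lrat, a visual cycle enzyme of the pigment epithelium, 1.69, 0.791 and 1.58 and 10.9, 11.9 and 3.29 CPM.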
